A study of Homo sapiens with 12 samples.

Results

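The retinoblastoma (RB) pocket proteins and the E2F and DP transcription factors that they hold were followed here as 10 genes: RB1, RBL1, RBL2, E2F1, E2F2, E2F3, E2F4, E2F7, E2F8 and TFDP1. They were taken by gene symbol from the 2 deposited differential expression tables, and all 10 of the 10 were listed among the 26485 genes of each table. HEK293T, an embryonic kidney line of human origin with the SV40 large T antigen, was transfected by polyethylenimine with PX330-GFP plasmids in 4 groups of 3 polyA RNA libraries: the Luciferase sgRNA with Cas9, the Luciferase sgRNA without Cas9, the 6T sgRNA with Cas9 and the 6T sgRNA without Cas9. All groups share the line, the GFP plasmid backbone and the transfection, in which each well of a 6-well plate received 2 µg of DNA and 6 µl of polyethylenimine. Nothing in the labels states that replicates came from separate cultures, and each p-value therefore reflects only the variation among these libraries, which may be technical. Each table gives means for a condition A and a condition B, and its headers leave unstated which of them received Cas9 and if the 2 tables share one order. Every difference below sets condition B against condition A and carries no direction with respect to Cas9.

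Pocket proteins bind E2F factors and recruit repressive chromatin complexes to the promoters of genes for DNA synthesis and cell cycle entry. Phosphorylation by cyclin-dependent kinases releases the E2F factors in late G1 phase, and large T antigen releases them by binding the pocket proteins directly. HEK293 cells also carry adenovirus E1A, another viral protein that binds the pocket proteins. All groups share the line, and neither viral protein nor its binding was measured here.

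Promoters of E2F-regulated genes, which include several E2F and pocket protein genes, carry short GC-rich words near the transcription start. RefSeq promoter sequences on GRCh38.p14, from 250 bases before to 50 bases after the start, were at hand as 11 windows of 9 of the 10 genes, with a pair of windows each for RBL2 and E2F3, and E2F8 had no entry. The window of RB1 starts from a transcript 172724 bases inside the annotated gene, so the promoter at the start of RB1 was not searched. The windows of RBL2 start 494 and 1642 bases inside the gene. For E2F3, 1 window, which held none of the words below, starts 1708 bases inside the gene. The 4 words TTTCCCGC, TTTCGCGC, TTTGCCGC and TTTGGCGC, searched on both strands, were present in 5 of the 11 windows (45.5%), 1 each of RBL1, E2F1, E2F2, E2F3 and TFDP1, and in 3.31% of 35116 promoter windows of that length. The stretches around these words are shown because they hold the E2F words of these genes, with each word in capitals and the gene's own strand read 5′ to 3′.
RBL1, chr20:37095986-37096043, minus strand: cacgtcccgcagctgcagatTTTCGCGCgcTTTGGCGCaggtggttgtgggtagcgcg
E2F1, chr20:33686378-33686438, minus strand: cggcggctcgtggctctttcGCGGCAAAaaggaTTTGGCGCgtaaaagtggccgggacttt
E2F2, chr1:23531248-23531295, minus strand: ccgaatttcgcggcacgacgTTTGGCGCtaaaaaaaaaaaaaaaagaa
E2F3, chr6:20401806-20401853, plus strand: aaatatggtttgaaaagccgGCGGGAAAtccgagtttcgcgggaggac
TFDP1, chr13:113584613-113584660, plus strand: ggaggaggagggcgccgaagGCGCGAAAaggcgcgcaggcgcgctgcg
RBL1 and E2F1 each held a pair of words, at positions −26 and −16 of RBL1 and at −33 and −20 of E2F1, counted from the start. The single words lay at −42 in E2F2, −53 in E2F3 and −120 in TFDP1. The word TTTGAA, the CHR element read by the DREAM complex, was in 2 of the 11 windows (18.2%), 1 each of RBL2 and E2F3, and in 15.2% of all windows. A match is a description of the letters in the window, and no match says only that these words are not in it.

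Reads per library were recovered as whole numbers from the deposited condition means. The libraries of a condition are named B1 to B3 and A1 to A3 in the order of their size factors, which matches no replicate number in the labels. Reads in genes ranged from 19325780 to 38318828 in the Luciferase B libraries and from 5897729 to 8231646 in the Luciferase A libraries. They ranged from 6646900 to 8295013 in the 6T B libraries and from 6356206 to 8237183 in the 6T A libraries. These totals include an estimate, from the condition mean and size factor, for genes whose reads were not recovered. The estimated part was 29.4% to 29.5% in the Luciferase B libraries and 6.99% to 7.70% in the other libraries. The greater depth of Luciferase B coincides with a comparison, and its part in the results was not tested. All 6 HEK293T markers examined (NEFL, NEFM, PAX2, VIM, KRT18 and KRT8) were present, with condition means of at least 120. Of 14 markers of other cell types, CD3E of T cells and HBB of red cells were at 0 in every condition mean. COL1A1 of fibroblasts had condition means of 497.1 to 533.6 normalized reads, and the summed level of the 14 was 622.9 in Luciferase B, 640.9 in Luciferase A, 601.8 in 6T B and 619.3 in 6T A.

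Per kilobase of exon, the DP partner, E2F4 and the activator E2F transcripts were more abundant than those of the pocket proteins. These levels were divided by the length of all annotated exons of a gene and were not corrected for GC content. Over the 12 libraries TFDP1 averaged 522 ± 31.9 normalized reads per kilobase (SD, n = 12), E2F1 425 ± 54.0, E2F4 302 ± 21.4, E2F3 219 ± 16.1 and E2F2 158 ± 21.9. RBL2 averaged 88.7 ± 11.8 per kilobase, E2F8 69.0 ± 4.35, E2F7 68.8 ± 6.23, RBL1 64.1 ± 8.44 and RB1 51.3 ± 12.6. In this order the ranges of neighbouring genes were apart at 3 places, between E2F1 and E2F4, between E2F4 and E2F3, and between E2F2 and RBL2. All other neighbours overlapped, among them E2F8, E2F7, RBL1 and RB1. A lower level in a bulk library can be fewer cells with the transcript or less of it in each cell, and the 2 cannot be told apart here.

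**Figure D1:**
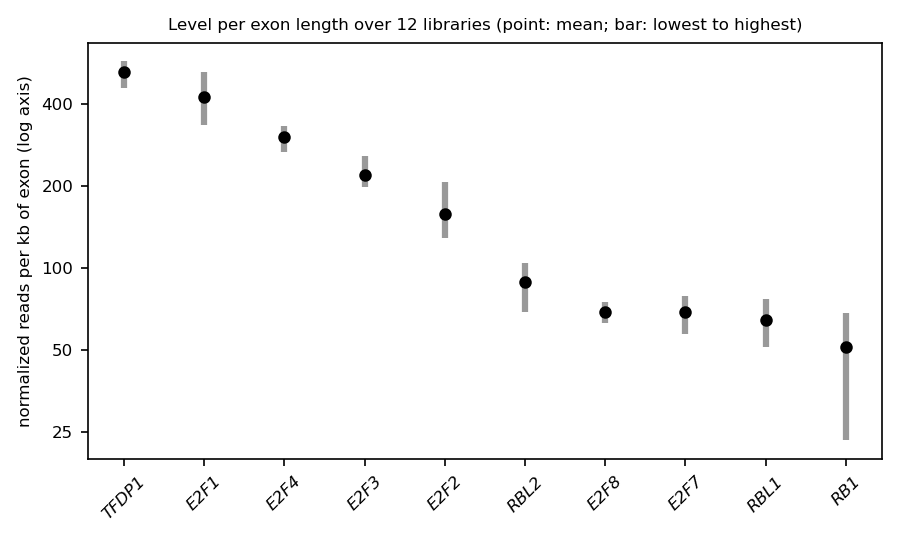
Normalized reads per kilobase of exon for the 10 genes on a log axis; each point is the mean of 12 libraries and each bar runs from the lowest to the highest library. TFDP1 and E2F1 lie highest, and the bar of RB1, from 23.3 to 68.3, is the longest.

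None of the 10 genes was called in either of the authors' comparisons of condition B with condition A. In the authors' deposited table for the Luciferase sgRNA, 0% of 20194 genes tested had an adjusted p under 0.05, and 1.22% (246 genes) passed 0.05 without adjustment. In the authors' deposited table for the 6T sgRNA these shares were 0.0416% (8 of 19246 genes) and 0.868% (167 genes). Each of the 10 genes had an adjusted p of 1 in both tables, and none had an unadjusted p under 0.05. A limma fit on the recovered reads, log2(normalized reads + 1), called 0% of 13696 genes under the Luciferase sgRNA, with 9.75% at an unadjusted p under 0.05, and 0% of 13983 genes under the 6T sgRNA, with 2.41%. Of the 10 genes, 1 (E2F2, Luciferase) had an unadjusted limma p under 0.05.

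**Figure D2:**
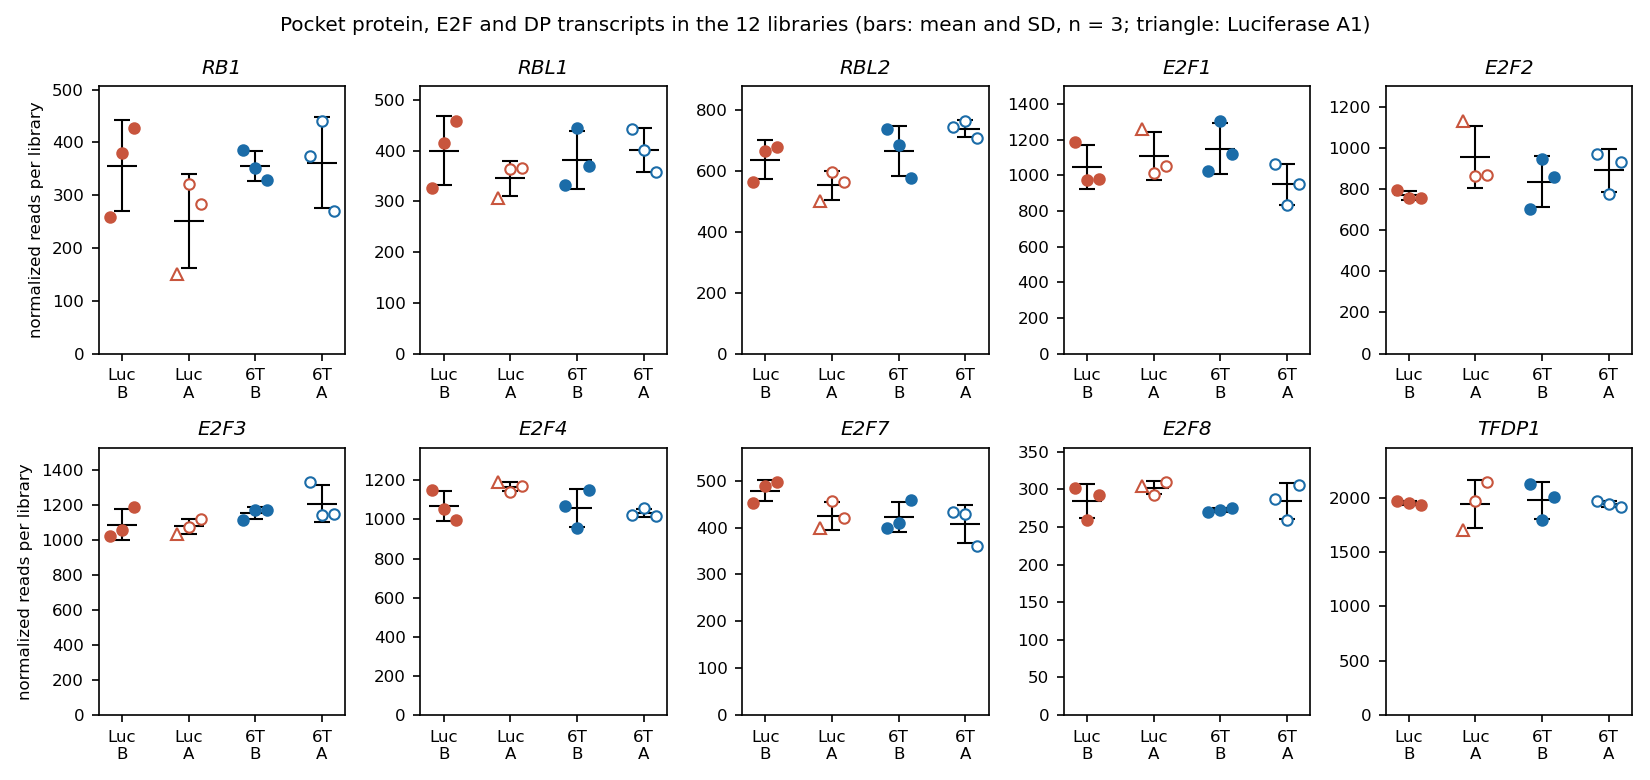
Normalized reads of the 10 genes in each library, with the mean and SD of 3 libraries as bars. Filled symbols are condition B, open symbols condition A and the triangle is library A1 of the Luciferase sgRNA, which holds the lowest RB1, RBL1, RBL2 and TFDP1 values and the highest E2F2 and E2F4 values of the 12 libraries.

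RB1, the founding tumour suppressor of the family (13:48303726-48599436, plus strand), was the most variable of the 10 genes. It had 259, 380 and 426 normalized reads in the Luciferase B libraries, against 150, 320 and 282 in the Luciferase A libraries. The ranges overlapped, and the lowest value, from 91 reads, belonged to Luciferase A1. In the authors' deposited table the log2 fold change was 0.50 (p = 0.139, adjusted p = 1). In limma the difference was 0.54 with a 95% interval from −0.11 to 1.19 (adjusted p = 0.456), and it was 0.21 without Luciferase A1. Under the 6T sgRNA RB1 had 385, 352 and 328 normalized reads in condition B, against 374, 441 and 271 in condition A. The 3 condition B values lay inside the condition A range, and the log2 fold change in the authors' deposited table was −0.03 (p = 0.919). The highest RB1 library exceeded the lowest by 2.93-fold, a ratio larger than that of 93.8% of 11320 genes. These genes had a mean of at least 50 normalized reads, were not matched to RB1 for level, and had a median ratio of 1.54.

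RBL1, which encodes the pocket protein p107 (20:36996349-37095995, minus strand), had 325, 415 and 458 normalized reads in Luciferase B, against 306, 363 and 366 in Luciferase A. Under the 6T sgRNA it had 332, 444 and 369 in condition B, against 443, 402 and 358 in condition A. Both pairs of groups overlapped, and the log2 fold changes in the authors' deposited tables were 0.21 (p = 0.279) for Luciferase and −0.07 (p = 0.741) for 6T. RBL2, which encodes p130, the pocket protein of resting cells (16:53433977-53491649, plus strand), had 563, 667 and 680 normalized reads in Luciferase B, against 502, 595 and 563 in Luciferase A. It had 739, 686 and 577 in 6T B, against 746, 765 and 708 in 6T A. These groups also overlapped, with log2 fold changes in the authors' deposited tables of 0.20 (p = 0.277) and −0.15 (p = 0.306). Exons of RBL1 and RBL2 overlap genes on the other strand, 610 bases of RBL2 with AKTIP among them, and without stated strand use in the counting such reads cannot be assigned.

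Among the activators, which switch on S phase genes once free of RB, E2F1 (20:33675683-33686404, minus strand) had 1027, 1306 and 1117 normalized reads in 6T B, against 1066, 835 and 950 in 6T A. The lowest condition B library fell below the highest condition A library. The authors' deposited table gave E2F1 a 1.21-fold higher mean in condition B (log2 fold change 0.27, p = 0.061, adjusted p = 1), rank 210 by p among the genes tested. In limma the difference was 0.27 with a 95% interval from −0.0016 to 0.55. On leaving out 1 library it ran from 0.18, without 6T B2, to 0.36, without 6T A1. After the correction for GC content described below it was 0.20, with an interval from −0.05 to 0.45. Under the Luciferase sgRNA E2F1 had 1189, 973 and 977 normalized reads in condition B, against 1261, 1013 and 1050 in condition A, with a log2 fold change of −0.08 (p = 0.665) in the authors' deposited table. The ranges overlapped there too.

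E2F2 (1:23506430-23531220, minus strand) was the 1 gene of the 10 whose Luciferase groups did not overlap. It had 795, 756 and 757 normalized reads in Luciferase B, against 1132, 866 and 869 in Luciferase A. Groups did not overlap for 15.9% of 13696 genes in that comparison, so 1 of 10 was not above the background. The authors' deposited table gave a fold of 0.805 (log2 fold change −0.31, p = 0.116, adjusted p = 1). In limma it was −0.30 with a 95% interval from −0.57 to −0.03 (adjusted p = 0.456), and −0.17 without Luciferase A1. Under the 6T sgRNA E2F2 had 701, 944 and 861 in condition B, against 971, 774 and 931 in condition A, and the groups overlapped. No gene of the 10 had groups apart under the 6T sgRNA, where 7.92% of 13983 genes did. E2F3 (6:20401906-20493715, plus strand) had 1021, 1055 and 1186 normalized reads in Luciferase B, against 1034, 1075 and 1120 in Luciferase A. It had 1113, 1172 and 1171 in 6T B, against 1328, 1142 and 1148 in 6T A. The E2F3 groups overlapped in both tables, with log2 fold changes of 0.01 (p = 0.943) and −0.07 (p = 0.731) in the authors' deposited tables. E2F3 has 2 annotated pseudogenes and E2F4 has 1, so their counts are uncertain where reads could align to either copy.

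E2F4, the main repressor E2F bound by p107 and p130 (16:67192169-67198918, plus strand), had 1152, 1055 and 997 normalized reads in Luciferase B, against 1190, 1141 and 1174 in Luciferase A. It had 1068, 957 and 1149 in 6T B, against 1024, 1057 and 1020 in 6T A. The groups overlapped in both tables, with log2 fold changes of −0.13 (p = 0.438) and 0.03 (p = 0.805) in the authors' deposited tables. The atypical factors E2F7 (12:77021247-77065580) and E2F8 (11:19224063-19241620), both on the minus strand, repress E2F targets without a DP partner. E2F7 had 453, 488 and 496 normalized reads in Luciferase B, against 398, 456 and 421 in Luciferase A, and 399, 411 and 458 in 6T B, against 432, 429 and 360 in 6T A. E2F8 had 302, 259 and 292 in Luciferase B, against 304, 292 and 309 in Luciferase A, and 270, 272 and 275 in 6T B, against 288, 260 and 306 in 6T A. All 4 pairs of groups overlapped, and the authors' log2 fold changes in the deposited tables were 0.17 (p = 0.365) and 0.05 (p = 0.683) for E2F7 and −0.09 (p = 0.658) and −0.06 (p = 0.736) for E2F8, Luciferase then 6T.

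TFDP1, which encodes the DP1 partner that lets the classical E2F factors bind DNA (13:113584721-113641470, plus strand), had 1973, 1954 and 1936 normalized reads in Luciferase B, against 1707, 1973 and 2141 in Luciferase A. It had 2128, 1796 and 2002 in 6T B, against 1966, 1942 and 1918 in 6T A. In each table the narrower group lay inside the other, and the log2 fold changes in the authors' deposited tables were 0.01 (p = 0.918) and 0.02 (p = 0.874). E2F8, E2F4 and TFDP1 were the steadiest of the 10 over the 12 libraries, with a highest to lowest ratio of 1.19, 1.24 and 1.25. For E2F8, 1.73% of the same 11320 genes, not matched for level, had a smaller ratio.

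**Figure D3:**
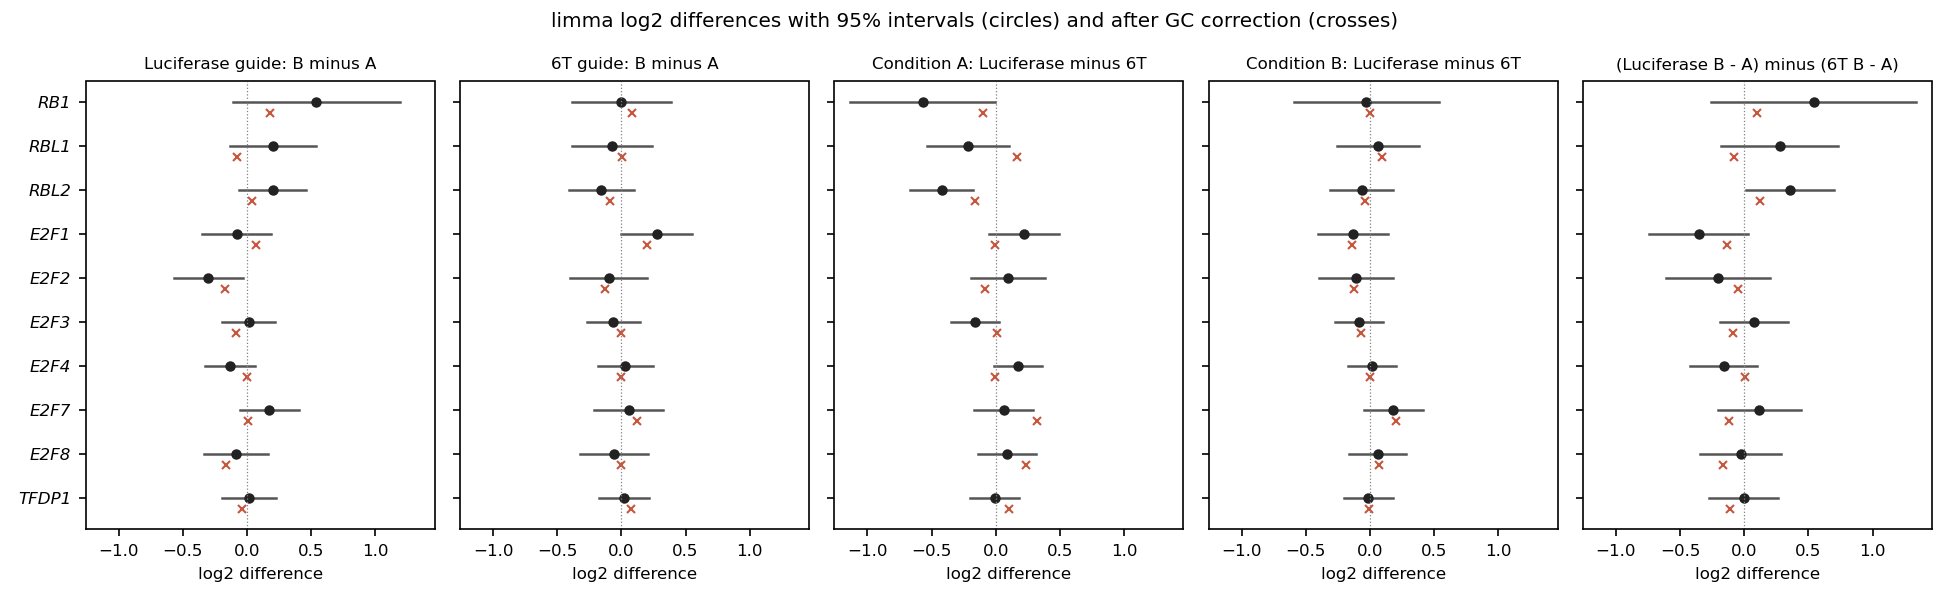
limma log2 differences of the 10 genes in 5 comparisons, with 95% intervals as lines and the difference after correction for GC content as crosses. The RB1 intervals are the widest in every panel, and the crosses of RB1, RBL1 and RBL2 lie nearer to 0 than the circles in the Luciferase comparison of condition B with condition A.

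The difference between the guides in the change of condition B against condition A was tested with limma over all 12 libraries. It called 0% of 13671 genes, with 9.49% at an unadjusted p under 0.05. Of the 10 genes, 1 had an unadjusted p under 0.05: RBL2, with a log2 difference of 0.36 ± 0.16 (SE, adjusted p = 0.484). Its 95% interval ran from 0.01 to 0.70. RB1 had a difference of 0.54 with an interval from −0.26 to 1.34 (adjusted p = 0.521), and the difference was 0.21 without Luciferase A1. For E2F1 the difference was −0.36 with an interval from −0.74 to 0.03 (adjusted p = 0.484). Neither direction can be tied to Cas9, since the order of the conditions is not known to be shared by the tables. If the order is not shared, this contrast is the sum of the guides' Cas9 changes and not their difference. The values above therefore cannot settle if a change with Cas9 depends on the guide.

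Each interval, from the limma fit without GC correction, bounds the change in 1 gene that these libraries could hide. In limma all 10 intervals for the 6T sgRNA lay within 2-fold, the widest bounds being −0.41 and 0.55 on the log2 scale. For the Luciferase sgRNA 9 of 10 lay within 2-fold, all but that of RB1, with bounds of −0.57 and 1.19. For the difference between guides 9 of 10 did, again all but that of RB1. For the guides within condition A 9 of 10 did, the interval of RB1 reaching −1.13, and within condition B all 10 did.

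Size factors computed over the 12 libraries together differed by at most 0.227% from those recovered from the deposited condition means. Both tables thus used one normalization, and the 4 condition means of a gene could be set side by side. Within condition A, the Luciferase libraries were compared with the 6T libraries, with the limit that condition A may not be the same arm in both tables. RBL2 had 502, 595 and 563 normalized reads in Luciferase A, against 746, 765 and 708 in 6T A, and the groups did not overlap. The limma log2 difference was −0.42 ± 0.11 (SE), with an interval from −0.67 to −0.18, and missed the threshold (adjusted p = 0.0643). Over the alternative settings the limma adjusted p of RBL2 ran from 0.0465, without Luciferase A2, to 0.332, after GC correction, where the log2 difference was −0.16. RB1, at 150, 320 and 282 against 374, 441 and 271, had a difference of −0.57 ± 0.26 (SE, adjusted p = 0.157), which was −0.24 without Luciferase A1. The groups were also apart for E2F3, lower in Luciferase A, and for E2F4, higher in Luciferase A, with log2 differences of −0.16 and 0.18 (adjusted p = 0.218 and 0.179). After GC correction the differences of E2F3 and E2F4 were 0.01 and −0.01, opposite in sign, and that of RB1 was −0.10. These are 3 genes of 10 with groups apart, beside 33.1% of 14015 genes, and 2 of 10 (RB1 and RBL2) at an unadjusted p under 0.05, beside 31.2% of 13671 genes. After GC correction the 2 genes at an unadjusted p under 0.05 in limma were E2F7, at 0.33 (adjusted p = 0.147), and E2F8, at 0.23 (adjusted p = 0.291). Both were higher in Luciferase A. These are 2 of 10, beside 2129 of 12921 genes at an unadjusted p under 0.05 after that correction. Without GC correction 0.0585% of all genes (8 genes) were called, none of them among the 10.

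Within condition B the 10 genes had overlapping groups throughout, while 12.8% of 13685 genes did not overlap. limma called 0% of 13671 genes there, with 5.34% at an unadjusted p under 0.05, and none of the 10 reached that. The largest difference of the 10 in size was that of E2F7, at 0.18 with an interval from −0.05 to 0.41 (adjusted p = 0.954). After GC correction the limma difference of E2F7 was 0.205, with an interval from 0.0009 to 0.41 (adjusted p = 0.556). E2F7 was then the 1 gene of the 10 at an unadjusted p under 0.05, beside 1156 of 12921 genes. RBL2, which had groups apart in condition A, had a difference of −0.06 in condition B (interval −0.31 to 0.18), and RB1 had −0.03 (interval −0.59 to 0.54).

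The libraries differed in how read numbers depended on GC content. The slope of log2 reads on GC content over 10849 genes was 0.37 per 10% GC in Luciferase A1 and −0.23 in 6T A2, the highest and the lowest of the 12. The longest transcripts of RB1, RBL1, E2F7 and RBL2 had 37.3%, 40.0%, 43.1% and 43.2% GC, and those of E2F2, E2F4 and E2F1 had 57.5%, 58.1% and 62.5%. In Luciferase A1 the log2 deviation from the gene's mean over the 12 libraries was −1.08 for RB1, −0.31 for RBL1, −0.12 for E2F7 and −0.36 for RBL2, and 0.40 for E2F2, 0.14 for E2F4 and 0.26 for E2F1. At intermediate GC content, from 45.2% to 46.6%, it was −0.12 for E2F3, 0.09 for E2F8 and −0.19 for TFDP1. RB1 was lowest in Luciferase A1 and highest in 6T A2. In the GC correction a smooth curve of log2 reads on GC content, not the straight slope, was taken from each library. The limma difference of condition B from condition A under the Luciferase sgRNA was then 0.18 for RB1, −0.08 for RBL1 and 0.03 for RBL2. It was 0.07 for E2F1 and −0.17 for E2F2. The corrected difference between guides was 0.10 for RB1, 0.12 for RBL2 and −0.13 for E2F1. Under the Luciferase sgRNA the sign of the difference changed with this correction for RBL1, E2F1, E2F3, E2F4 and TFDP1.

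**Figure D4:**
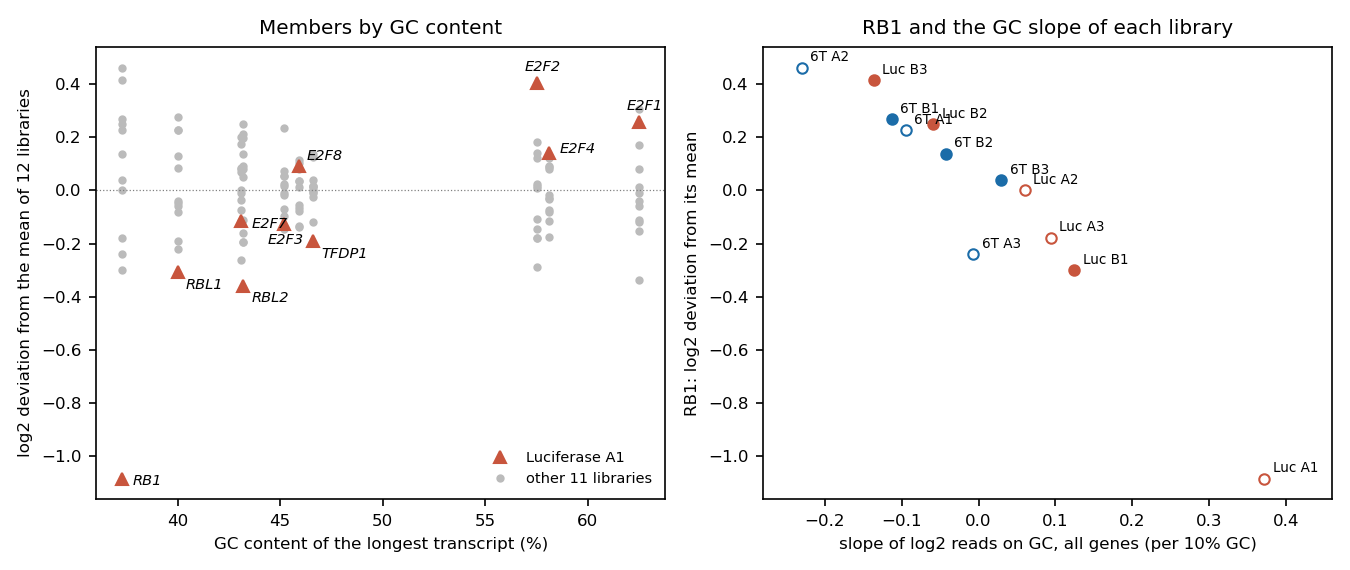
Left, log2 deviation of each gene from its mean over 12 libraries against the GC content of its longest transcript, for Luciferase A1 (triangles) and the other libraries (dots). Right, the RB1 deviation against the slope of log2 reads on GC content in each library, filled for condition B and open for condition A; Luciferase A1 lies apart, with a slope of 0.37 and an RB1 deviation of −1.08.

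The genes whose values were most like those of RB1 over the 12 libraries, among 10001 genes, were AKAP11, TRIP12 and STAG2, with Pearson r of 0.994, 0.987 and 0.984. Their longest transcripts had 37.3%, 42.0% and 36.6% GC. Most like E2F1 were ANO8, NLRX1 and SPSB3, with r of 0.951, 0.932 and 0.931 and a GC content of 65.8%, 62.5% and 63.8%. The points share their libraries and the GC slopes given above, and the correlations are a description.

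Other genes of the pathway were read from 5 lists, and none of their members was called in the authors' deposited tables. Under the Luciferase sgRNA the median log2 fold change over the 10 genes was 0.01, with 6 higher and 4 lower in condition B, beside −0.01 for all genes. Under the 6T sgRNA their median was −0.04, with 4 higher and 6 lower, beside −0.03 for all genes. E2F target genes, which encode replication and nucleotide synthesis enzymes, had medians of 0.04 under Luciferase and −0.05 under 6T. Of the 44, 28 (63.6%) were higher in condition B under Luciferase, beside 49.0% of all genes, and 14 (31.8%) were higher under 6T, beside 42.2% of all genes. The remaining E2F, DP and DREAM complex genes had medians of 0.03 and −0.06 over 11 genes, G1 and S phase cyclins and kinases 0.05 and −0.05 over 12, and chromatin partners of the pocket proteins 0.08 and −0.03 over 12, Luciferase then 6T. Inhibitors of cyclin-dependent kinases, which keep pocket proteins bound to E2F, had medians of −0.08 and −0.02 over 7 genes.

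The smallest p-values in these lists missed the threshold after adjustment over all genes. CDKN1A, which encodes the inhibitor p21, had 1387, 1152 and 1112 normalized reads in Luciferase B, against 2503, 1748 and 1722 in Luciferase A. The CDKN1A groups did not overlap, as was so for 15.9% of 13696 genes in that comparison. The authors' deposited table gave a log2 fold change of −0.71 (p = 0.0204, adjusted p = 1), and its highest of the 6 libraries was Luciferase A1. RRM1, a ribonucleotide reductase subunit, had 2514, 3049 and 2749 in Luciferase B, against 1477, 2584 and 2374 in Luciferase A, and BRCA2, of homologous recombination, had 254, 310 and 456, against 178, 251 and 240. In the authors' deposited table the log2 fold changes of RRM1 and BRCA2 were 0.37 (p = 0.0541) and 0.61 (p = 0.0578). Those of RBBP4, E2F5, CCNA2, CCNE2, RBBP7, ARID4A and CDKN2A under the Luciferase sgRNA were 0.32, 0.34, 0.35, 0.58, 0.39, 0.68 and −0.21. Luciferase A1 held the lowest RRM1 and BRCA2 values of its 6 libraries. The groups were also apart for BRCA2 and E2F5. All these genes were picked by their small p in the same data, so groups apart are no separate evidence.

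Under the 6T sgRNA MYBL2, the B-Myb factor that joins the DREAM core in S phase, had 4518, 4639 and 4989 normalized reads in condition B, against 4198, 4185 and 3892 in condition A. The groups were apart, as was so for 7.92% of 13983 genes under the 6T sgRNA. The authors' deposited table gave MYBL2 a log2 fold change of 0.20 (p = 0.144, adjusted p = 1). CHEK1, the checkpoint kinase, had 658, 645 and 697 in 6T B, against 741, 755 and 821 in 6T A, also with groups apart, with a log2 fold change of −0.21 (p = 0.181) in the authors' deposited table. MYBL2 and CHEK1 were picked by their small p in the same data, so their groups apart are no separate evidence. CDT1, the replication licensing factor, had 2431, 3337 and 3142 in 6T B, against 2720, 2380 and 2617 in 6T A, and overlapped. The authors' deposited DESeq table gave it a log2 fold change of 0.21 (p = 0.149). For LIN37, CCNE2, CCND1, CDKN2A, CDKN2C, HDAC1 and KDM5A the authors' deposited table gave 0.26, −0.37, −0.12, 0.06, 0.07, −0.15 and −0.14, with p between 0.25 and 0.719. CCNE2, a cyclin of the G1 to S transition, was thus named in both tables, at 0.58 under Luciferase and −0.37 under 6T.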

How the data were processed

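Polyadenylated RNA of 12 HEK293T libraries was sequenced, 3 per group. Reads were aligned with STAR to hg38, counted per gene with HTSeq and tested with DESeq, per the submitters' processing notes; versions are not given in the sources used here. The authors deposited 1 table per sgRNA, with a signal column of mean normalized read counts, the means of conditions A and B, the ratio (fold change) of B to A, its log2 value, a p-value and an adjusted p-value. Rows that name no gene held 38.6% to 42.3% of the summed means and were left out. Strand use in the counting is not given in the sources used here.

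The main results for condition B against condition A are the authors' deposited tests, at an adjusted p under 0.05. Whole reads per library were recovered by integer search from the condition means, for 98.07% of genes above 0 in Luciferase B and 99.72% to 99.74% elsewhere. The genes not recovered held up to 29.5% of reads in Luciferase B. The recovery was tested on simulated data. limma 3.58.1 in R 4.3.3 was fitted with a mean-variance trend to log2(normalized reads + 1) for genes with a mean of at least 10, with Benjamini-Hochberg adjustment over all genes tested. Fold changes on that scale understate the change of low genes. Exon lengths, GC content and coordinates came from GENCODE 29 on GRCh38. Alternatives were another pseudocount, other filters, RPM scaling, GC correction and leaving out each library. The 10 genes and the lists were chosen with earlier results of these data known. Besides the 10 genes, the text names from each list and table the 2 measured genes with the smallest authors' p and any called gene, and the 3 genes most like RB1 and E2F1, with a mean of at least 100.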

Additional observations from a re-analysis of the deposited data

How the results depend on the processing

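None of the 10 genes was called under any alternative for the 2 comparisons of condition B with condition A, the difference between guides and the guides within condition B; within condition A the number called was 0 to 1 on leaving out 1 library, the 1 being RBL2 without Luciferase A2. Of 650 recomputed log2 differences of the 10 genes, 620 moved by less than the main fit's limma standard error and 30 by more. Of the 30, 25 came with GC correction and 5 on leaving out a library. For condition B against condition A the moves were measured from the authors' log2 fold change, so they include the change of method. Counts over all genes were less stable. For the 6T sgRNA the authors called 8 genes, limma 0 in the 6 libraries and 3 with all 12, and 0 with a pseudocount of 5, no filter, a minimum mean of 50, RPM scaling or GC correction; leaving out 1 library gave 0 to 0. For the Luciferase sgRNA GC correction gave 4 genes, against 0. Within condition A the 8 genes became 13 with a pseudocount of 5, 82 with a minimum mean of 50, 223 with RPM scaling, and 0 to 995 on leaving out 1 library, the 995 without Luciferase A2. Within condition B the count was 1 with GC correction and 0 to 2 on leaving out 1 library, against 0. The difference between guides gave 0 in each alternative, including a test of the authors' 2 log2 fold changes (0 of 15273 genes, 324 at an unadjusted p under 0.05). The cause of these shifts was not tested. No paired analysis was possible because the deposited columns are condition means and carry no replicate number. With 3 libraries per group the 95% interval of RB1 under the Luciferase sgRNA reached a log2 difference of 1.19. On leaving out 1 library this upper bound ran from 0.62, without Luciferase A1, to 1.46, without Luciferase B1. After GC correction it was 0.49.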
